A study of Homo sapiens with 12 samples.

Results

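The 56 genes described here are a named list of DNA replication and S phase genes, chosen for the roles of their products and not by a measured value, out of 28395 genes counted by RNA-seq in HCT116 cells. All 56 were found in the count table and all 56 were among the 15853 genes tested, which reached 0.5 CPM (read counts scaled to a common library size) in no fewer than 3 libraries. They comprise 11 licensing and helicase genes, 8 origin firing genes, 20 genes of the sliding clamp, its loader and the polymerases, 5 nucleotide supply genes, 8 G1-S regulators and 4 chromatin and histone mRNA genes. HCT116 cells come from a human colorectal carcinoma, and 4 stable derivatives of them were compared, each with 3 libraries (12 in total). EV cells carried the empty pcDNA vector and EHF cells a pcDNA3.1 plasmid for EHF, an epithelial ETS transcription factor. Both lines were selected as geneticin-resistant clones. CDX1 cells carried an MSCV-IRES-GFP retrovirus for CDX1, an intestinal homeobox transcription factor, and were sorted by GFP. EHF+CDX1 cells were geneticin-resistant clones obtained by transfecting CDX1 cells with EHF, so that they carried both, and all lines were grown in DMEM-F12 medium with FCS. The CDX1 line differed from the EV line in its vector and selection as well as in CDX1, and no line with an empty retrovirus was analysed here. It also held less EHF RNA than the EV line, a mean of 12.3 against 299 CPM. The comparisons asked how the expression of these genes differed between lines given neither, either or both factors.

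DNA is copied once per cell cycle. In G1, the origin recognition complex (ORC) together with CDC6 and CDT1 loads the MCM2 to MCM7 helicase onto origins, and geminin (GMNN) blocks reloading later. At the start of S phase cyclin E with CDK2 is active and the DBF4-dependent kinase CDC7 acts on the loaded helicase. CDC45 and the GINS complex join the helicase, and polymerase alpha with primase lays down primers. Polymerases delta and epsilon extend these primers on the PCNA clamp. Many of these genes are textbook targets of E2F transcription factors, which the retinoblastoma (RB) family restrains in G1, and in the intestine their expression is a feature of the proliferating crypt cells. RNA from whole cultures was measured, and a smaller share of cells in S phase and less RNA of these genes per cell cannot be told apart.

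Total counts ranged from 13523007 to 74186741 per library, and the lowest count of any of the 56 genes in any library was 64. The introduced genes followed the labels. EHF stood at 19312 ± 305 CPM (SD, n = 3) in EHF cells and 18708 ± 1433 CPM in EHF+CDX1 cells, against 299 ± 54.4 CPM in EV and 12.3 ± 0.603 CPM in CDX1 cells. CDX1 stood at 525 ± 35.8 CPM in CDX1 cells and 5419 ± 277 CPM in EHF+CDX1 cells, and had at most a few reads in the other lines. All 6 epithelial markers were detected in every line, with a summed level of 2737 to 3280 CPM in CDX1 libraries and 4450 to 5597 CPM in the other lines. The lower sum lay mostly in the keratin genes KRT8, KRT18 and KRT19, while EPCAM (mean 491 CPM against 265 in EV cells) and CLDN4 (395 against 275) were highest in CDX1 cells. CDH1 was at a mean of 117 CPM in CDX1, 102 in EHF and 111 in EHF+CDX1 cells, all below the 213 CPM of EV cells. The 5 fibroblast markers summed to 167 to 219 CPM in CDX1 libraries and 33.5 to 75.3 CPM elsewhere, which was almost wholly COL1A1, while COL3A1 had at most 96, COL1A2 at most 7, DCN at most 4 and LUM at most 4 reads in any library. The 4 leukocyte markers summed to 76.9 to 88.3 CPM in CDX1 libraries, nearly all of it CD68, and to 2.37 to 44.4 CPM elsewhere, with at most 6 reads of PTPRC and 3 of CD3E in any library. In EHF+CDX1 cells LYZ contributed a mean of 18.5 CPM to that sum, against at most 0.178 CPM in the other lines. The 3 endothelial markers summed to at most 1.87 CPM and the 2 erythroid markers to at most 2.04 CPM in any library. TMM scaling factors lay between 0.799 and 0.845 in CDX1 libraries and between 0.973 and 1.09 in the others. The part of these shifts in the results on CDX1 cells was not tested.

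EV replicate 3 stood apart from the other EV libraries. The 10 most abundant genes took 18.3% of its counts and 8.19% and 8.39% of those of EV replicates 1 and 2. Its level was below both of them for 56 of the 56 genes, against 41.4% of all genes tested. Each comparison with the EV line is therefore given with this library and without it. The labels do not say whether the libraries of a line came from separate cultures. The paper's legend for its RNA-seq clustering gives 2 biological replicates, while each line has 3 libraries here. The p-values therefore measure the spread between these libraries, which may be technical.

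The promoters of 4 genes are printed. They are those, among the 12 genes chosen for values in every library, whose promoter held an E2F word as defined below. That each holds such a word was thus fixed by the choice, and the promoters of PRIM1 and CDC7, with 0 such words, are not shown. PCNA and E2F1 are among the genes that were lower in CDX1 cells, RFC3 had the highest log2 fold change of EHF+CDX1 over EHF cells, and CDC25A had the highest in both EHF and EHF+CDX1 over EV cells. Each sequence is the 250 bases before the gene's start in RefSeq, on the GRCh38.p14 assembly, written 5′ to 3′ on the strand of the gene, and capitals mark matches on either strand to one of the words TTTCCCGC, TTTGGCGC, TTTCGCGC and TTTGCCGC, which are forms of the E2F binding site.
PCNA, chr20:5126623-5126872, minus strand: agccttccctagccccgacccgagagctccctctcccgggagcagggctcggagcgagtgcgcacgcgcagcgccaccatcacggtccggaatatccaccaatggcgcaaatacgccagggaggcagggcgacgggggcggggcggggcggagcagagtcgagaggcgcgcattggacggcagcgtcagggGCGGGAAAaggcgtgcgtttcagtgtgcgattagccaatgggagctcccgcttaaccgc
RFC3, chr13:33817899-33818148, plus strand: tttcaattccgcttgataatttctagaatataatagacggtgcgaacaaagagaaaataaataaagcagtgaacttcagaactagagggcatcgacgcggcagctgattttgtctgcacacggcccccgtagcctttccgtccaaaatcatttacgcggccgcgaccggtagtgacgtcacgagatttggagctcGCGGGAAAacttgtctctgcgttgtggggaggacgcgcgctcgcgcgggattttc
E2F1, chr20:33686386-33686635, minus strand: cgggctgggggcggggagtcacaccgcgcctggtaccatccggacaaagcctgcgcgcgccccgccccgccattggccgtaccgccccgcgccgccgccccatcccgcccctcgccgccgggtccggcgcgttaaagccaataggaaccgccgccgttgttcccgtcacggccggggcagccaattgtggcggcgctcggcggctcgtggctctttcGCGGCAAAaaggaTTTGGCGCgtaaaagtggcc
CDC25A, chr3:48188418-48188667, minus strand: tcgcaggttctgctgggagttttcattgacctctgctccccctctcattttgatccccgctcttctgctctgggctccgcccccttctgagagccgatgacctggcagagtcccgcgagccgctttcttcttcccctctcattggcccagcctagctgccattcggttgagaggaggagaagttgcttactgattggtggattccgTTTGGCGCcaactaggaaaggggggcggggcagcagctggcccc
The E2F1 promoter held 2 words, at 33 and 20 bases before the start, and those of PCNA, RFC3 and CDC25A held 1 each, at 59, 55 and 44 bases. RefSeq promoters were matched for 47 of the 56 genes, and MCM4, MCM5, GINS4, POLD3, RPA2, RPA3, CCNE2, CDK2 and E2F8 had no entry. At least 1 of these words was present in 16 of the 47 promoters (34%), against 2.79% of all 27305 promoters of the same length and 4.35% of those of 12089 tested genes. CCAAT, read on both strands with overlaps allowed, was in 53.2% of the 47, 33% of all promoters and 34.8% of those of tested genes, and the ETS core CCGGAA was in 31.9%, 14.8% and 23.5%. TTTATG, a word bound by CDX proteins, was in 3 of the 47 (6.38%), in 10% of all promoters and in 5.23% of those of tested genes. The median log2 fold change of CDX1 over EV cells was -2.19 for the 16 genes with an E2F word and -1.69 for the 31 without one, and the ranges, -3.66 to -0.25 and -4.07 to 0.64, overlapped. These matches describe letters in the window and were not read as sites.

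The largest difference was in CDX1 cells, where most of the 56 genes were lower than in each other line. Together they took 0.149% to 0.155% of the counts of the CDX1 libraries, 0.466% to 0.492% in EHF cells and 0.573% to 0.590% in EHF+CDX1 cells. In EV cells the share was 0.701% in replicate 1, 0.695% in replicate 2 and 0.283% in replicate 3. All 3 CDX1 libraries were below each of the 9 other libraries for 45 of the 56 genes, a pattern found in 25.8% of all genes tested. They were above each of the 9 others for 2 genes, CCNE1 and SLBP, against 27.6% of all genes tested. In the test against a 1.5-fold change, 43 of the 56 genes were lower in CDX1 than in EV cells and 0 were higher, where 23.3% of all genes tested were lower and 21.3% higher (edgeR quasi-likelihood, Benjamini-Hochberg adjusted p at 0.05). The count of 0 higher genes was also 0 at an unadjusted p of 0.05 and in DESeq2 and limma voom. Against no change, 49 were lower, 3 were higher and 4 passed neither way, with 35.1% of all genes lower and 33.8% higher. The median log2 fold change was -1.80 for the 56 genes and -0.03 for all genes. Without EV replicate 3, 49 were lower against 1.5-fold (24.8% of all genes) and the median was -2.16.

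**Figure D1:**
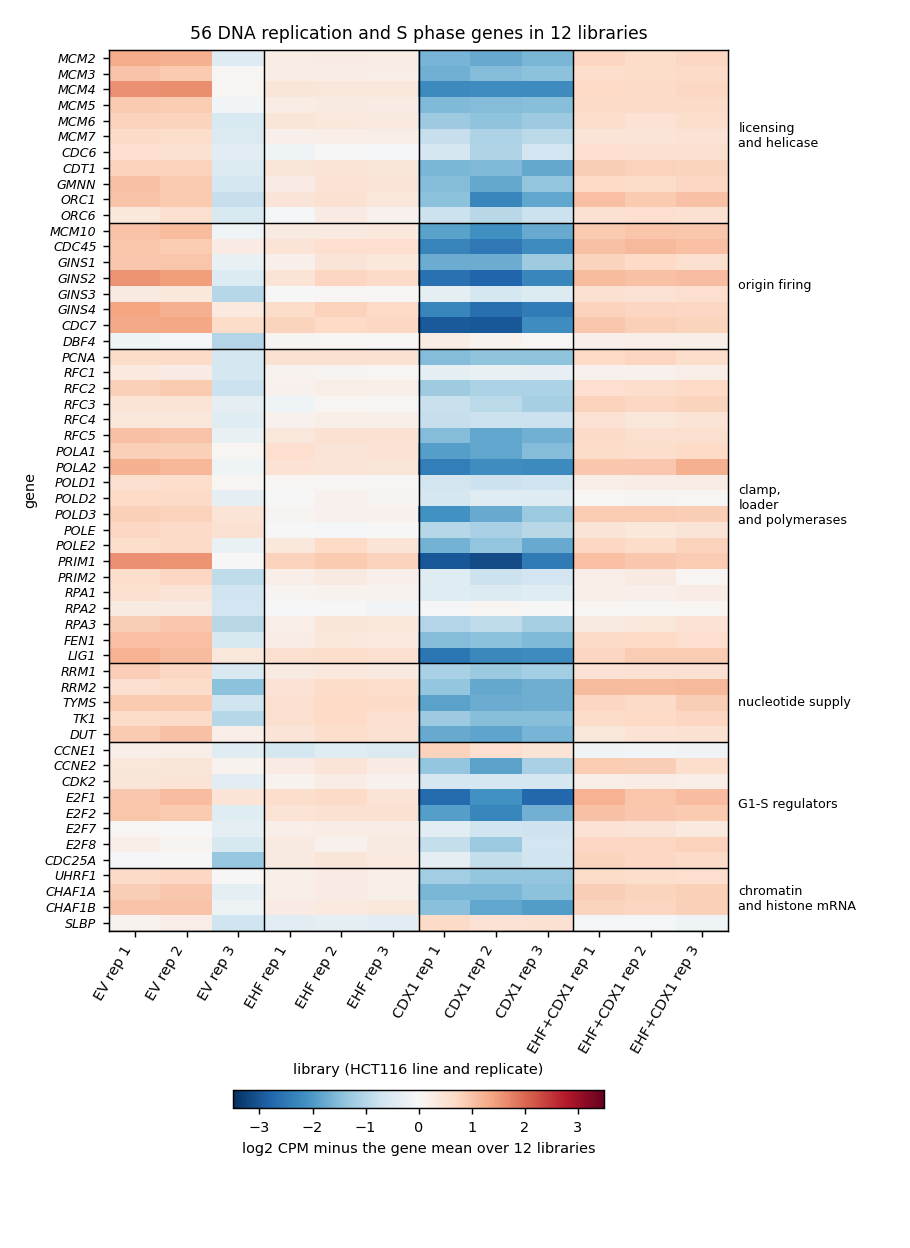
Log2 CPM of each of the 56 genes (rows, grouped by role) in each of the 12 libraries (columns), minus the mean of the gene over the 12 libraries; blue is below and red above that mean. The CDX1 columns are blue for most genes, while CCNE1 and SLBP run the other way. EV replicate 3 is lower than EV replicates 1 and 2 in every row.

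All 11 licensing and helicase genes were lower in CDX1 than in EV cells in the 1.5-fold test, with log2 fold changes between -3.46 and -1.02 and a median of -2.16. MCM4, a subunit of the helicase ring, was at 569, 581 and 199 CPM in the EV, 251, 246 and 248 CPM in the EHF, 40.1, 41.6 and 41.1 CPM in the CDX1 and 307, 300 and 314 CPM in the EHF+CDX1 libraries. The CDX1 libraries lay below all others and the EV libraries spanned the values of the EHF and EHF+CDX1 libraries. MCM4 fell by 3.46 ± 0.32 (log2, SE; adjusted p = 1.3e-06), which is 11.0-fold. MCM5 was at 234, 226 and 115 CPM in EV, 147, 152 and 150 CPM in EHF, 42.5, 42.8 and 43.5 CPM in CDX1 and 195, 197 and 197 CPM in EHF+CDX1 libraries. Its change in CDX1 against EV cells was -2.16 ± 0.21 (adjusted p = 2.1e-06). CDC6, the ATPase that brings the helicase to ORC, changed less. It was at 106, 102 and 53.8 CPM in EV, 63.1, 70.6 and 68.7 CPM in EHF, 46.3, 33.6 and 44.4 CPM in CDX1 and 106, 103 and 104 CPM in EHF+CDX1 libraries, and its highest CDX1 library lay just under EV replicate 3. Its log2 fold change was -1.07 ± 0.21 (adjusted p = 0.00071). The other subunits of the ring changed by -2.54 (MCM2), -2.25 (MCM3), -1.78 (MCM6) and -1.29 (MCM7). CDT1 changed by -2.13, its inhibitor GMNN by -2.16, ORC1 by -2.36 and ORC6 by -1.02.

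Among the 8 origin firing genes, 6 were lower against 1.5-fold, and CDC7 and GINS2 had the second and the third lowest log2 fold change of the 56 genes. CDC7, the catalytic subunit of the DBF4-dependent kinase (chr1:91500851-91525764 on GRCh38), was at 37.8, 38.4 and 23.6 CPM in EV, 25.7, 24.4 and 24.7 CPM in EHF, 1.93, 1.87 and 3.32 CPM in CDX1 and 29.1, 26.7 and 25.8 CPM in EHF+CDX1 libraries. The CDX1 libraries stood far below the rest, and the fall was 14.0-fold (log2 fold change -3.81 ± 0.24, adjusted p = 6.9e-08). DBF4, the regulatory subunit that activates CDC7, went the other way, at 38, 34.9 and 33 CPM in the CDX1 and 28.7, 31.2 and 15.6 CPM in the EV libraries. Its mean was 33.4 CPM in EHF and 36.9 CPM in EHF+CDX1 cells, near the 35.3 CPM of CDX1 cells, so the rise over EV was not particular to CDX1 cells. DBF4 in CDX1 against EV cells passed the test against no change (0.50 ± 0.19, adjusted p = 0.038) and not that against 1.5-fold. The log2 ratio of CDC7 over DBF4 in CPM was -3.95 ± 0.55 (SD, n = 3) in CDX1 cells, 0.43 ± 0.15 in EV, -0.42 ± 0.03 in EHF and -0.44 ± 0.11 in EHF+CDX1 cells. GINS2 changed by -3.66, GINS4 by -3.51 and GINS1 by -2.21, while GINS3, the remaining subunit of the complex, was at -0.47 ± 0.26 and passed neither test (adjusted p = 0.13 against no change). Without EV replicate 3 the GINS3 value was -0.81 and passed the test against no change (adjusted p = 1.0e-07). MCM10, a helicase activator, changed by -2.67 and CDC45 by -3.10.

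Of the 20 clamp, loader and polymerase genes, 15 were lower against 1.5-fold and 18 against no change. PRIM1, the catalytic subunit of primase (chr12:56731580-56752323), had the lowest log2 fold change of the 56 genes. Its level was 43.8, 43.3 and 14.2 CPM in EV, 25.3, 27.2 and 25.6 CPM in EHF, 1.82, 1.62 and 2.55 CPM in CDX1 and 29.8, 28 and 27 CPM in EHF+CDX1 libraries, with no overlap between the CDX1 and the other libraries. It fell 16.8-fold (-4.07 ± 0.37, adjusted p = 1.4e-06). PRIM2, the regulatory subunit of primase, was at -0.92 ± 0.31 and passed the test against no change alone (adjusted p = 0.019). The log2 ratio of PRIM1 over PRIM2 was -2.87 ± 0.38 in CDX1 cells and between 0.01 ± 0.03 and 0.30 ± 0.07 in the other lines. The polymerase alpha genes POLA1 and POLA2 changed by -2.38 and -3.15, the catalytic subunit of polymerase epsilon (POLE) by -1.67 and that of polymerase delta (POLD1) by -1.13. The accessory subunit genes POLE2 and POLD2 were 3.99-fold and 1.87-fold lower, of which POLE2 passed the 1.5-fold test and POLD2 passed against no change alone.

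PCNA, the sliding clamp whose promoter is shown above, was at 122, 123 and 50.3 CPM in EV, 112, 112 and 111 CPM in EHF, 27.3, 29.1 and 29 CPM in CDX1 and 126, 132 and 119 CPM in EHF+CDX1 libraries. The 3 CDX1 values lay below EV replicate 3, and PCNA fell 3.45-fold (-1.79 ± 0.25, adjusted p = 5.5e-05). Its count may include reads of PCNA-AS1, since the strand setting of the counting is not given in the sources used here. POLD3, a subunit of polymerase delta, was at 23.6, 22.8 and 18.4 CPM in EV, 14.2, 14.6 and 14.5 CPM in EHF, 2.98, 3.87 and 5.3 CPM in CDX1 and 24.5, 24.5 and 24 CPM in EHF+CDX1 libraries, and the 4 lines did not overlap. Its change in CDX1 cells was -2.42 ± 0.18 (adjusted p = 2.5e-07). Among the clamp loader genes RFC5 changed by -2.36, RFC2 by -1.66, RFC3 by -1.20 and RFC4 by -0.93, while RFC1, the large subunit, was at -0.35 ± 0.18 (adjusted p = 0.11). The single-strand binding protein genes were at -1.52 (RPA3), -0.66 (RPA1) and -0.05 (RPA2), of which RPA3 passed the 1.5-fold test, RPA1 passed against no change and RPA2 passed neither (adjusted p = 0.84). LIG1 and FEN1, which join and trim Okazaki fragments, changed by -3.28 and -2.19.

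**Figure D2:**
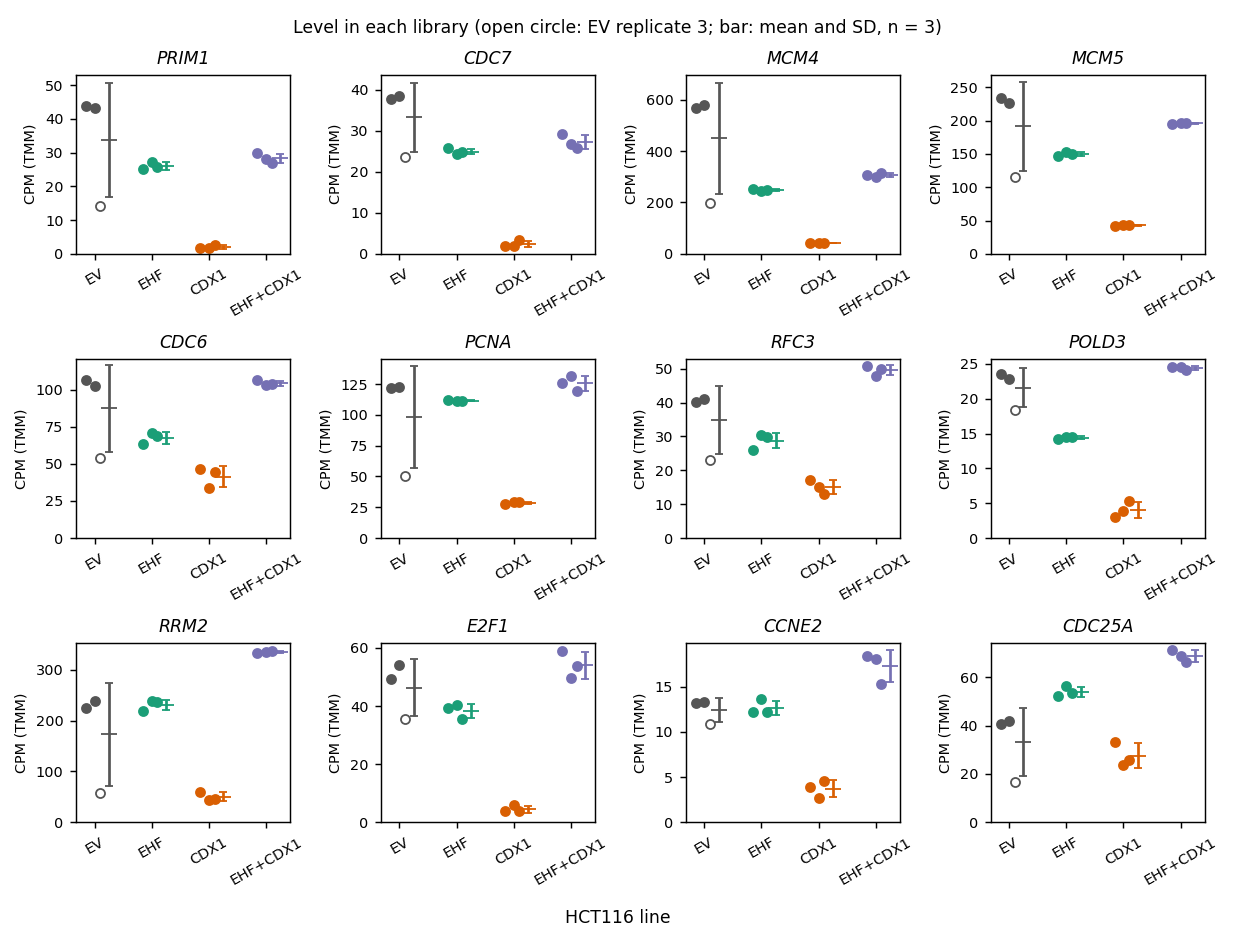
CPM after TMM normalization in each library (points) for 12 of the genes, with the mean and SD of each line (n = 3) at its right; the linear axis of each panel starts at 0. EV replicate 3 (open circle) lies below the other EV libraries in each panel, and the CDX1 points are the lowest in 10 panels, while they overlap it for RRM2 and lie above it for CDC25A.

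All 5 nucleotide supply genes were lower in CDX1 than in EV cells in the 1.5-fold test, between -2.51 (DUT) and -1.67 (RRM1). RRM2, the small subunit of ribonucleotide reductase (chr2:10122568-10211010), was at 226, 238 and 56.7 CPM in EV, 219, 238 and 236 CPM in EHF, 59.8, 43.9 and 46.5 CPM in CDX1 and 332, 334 and 337 CPM in EHF+CDX1 libraries. EV replicate 3 fell within the range of the CDX1 libraries, and the EHF+CDX1 libraries were above all others. Its change in CDX1 against EV cells was -1.79 ± 0.38 (adjusted p = 0.0013) with EV replicate 3 and -2.21 without it. TYMS, which makes thymidylate, changed by -2.32, and the salvage kinase TK1 by -1.69.

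The G1-S regulators divided. E2F1, E2F2 and CCNE2 were lower against 1.5-fold, CDK2, E2F7 and E2F8 were lower against no change alone, CCNE1 was higher against no change alone, and CDC25A passed neither test. E2F1, an activating E2F, was at 49.2, 54.3 and 35.5 CPM in EV, 39.2, 40.4 and 35.7 CPM in EHF, 3.92, 5.81 and 3.76 CPM in CDX1 and 58.9, 49.6 and 53.8 CPM in EHF+CDX1 libraries. The CDX1 libraries were the lowest without overlap, and E2F1 fell 10.3-fold (-3.36 ± 0.20, adjusted p = 3.9e-08). E2F2 changed by -2.55, and the repressor E2Fs E2F7 and E2F8 by -0.52 and -0.86. CDK2, the kinase partner of cyclin E, changed by -0.81. CCNE2, one of both E cyclins, was at 13.2, 13.3 and 10.9 CPM in EV, 12.2, 13.6 and 12.2 CPM in EHF, 3.9, 2.68 and 4.53 CPM in CDX1 and 18.4, 18.1 and 15.3 CPM in EHF+CDX1 libraries, and fell by 1.75 ± 0.18 (log2, adjusted p = 3.4e-06). CCNE1 was at 90, 77.6 and 71.4 CPM in the CDX1 libraries, above 59.7, 60.6 and 38.7 CPM in EV, 36.1 ± 2.31 CPM (SD, n = 3) in EHF and 46.9, 48.6 and 47.8 CPM in EHF+CDX1 libraries. Its log2 fold change against EV cells was 0.59 ± 0.15 (adjusted p = 0.0045). The log2 ratio of CCNE2 over CCNE1 was -4.46 ± 0.44 in CDX1 cells and between -2.06 ± 0.21 and -1.47 ± 0.15 in the other lines. CDC25A, the phosphatase that activates CDK2, was at 40.6, 41.7 and 16.8 CPM in EV, 52, 56.2 and 53.6 CPM in EHF, 33.3, 23.5 and 25.7 CPM in CDX1 and 71.4, 68.6 and 66.3 CPM in EHF+CDX1 libraries, and its change in CDX1 against EV cells was -0.25 ± 0.26 (adjusted p = 0.41).

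UHRF1, which carries DNA methylation through replication, and the CAF-1 genes CHAF1A and CHAF1B changed by -1.81, -2.14 and -2.43 in CDX1 against EV cells, all past the 1.5-fold test. SLBP, which binds the stem-loop of histone mRNAs, was at 183, 163 and 166 CPM in CDX1 against 124, 134 and 70.6 CPM in EV libraries, and its log2 fold change was 0.64 ± 0.18 (adjusted p = 0.0075 against no change). Without EV replicate 3 the increases of DBF4, CCNE1 and SLBP were smaller, at 0.24, 0.40 and 0.40, and each passed against no change. The increases of these 3 genes, with or without that library, were on the scale set by TMM. When libraries were scaled by their totals alone, the median of all genes in CDX1 against EV cells was -0.37, the 3 genes were at 0.13, 0.23 and 0.27 and none passed, and 49 of the 56 genes were lower against 1.5-fold.

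**Figure D3:**
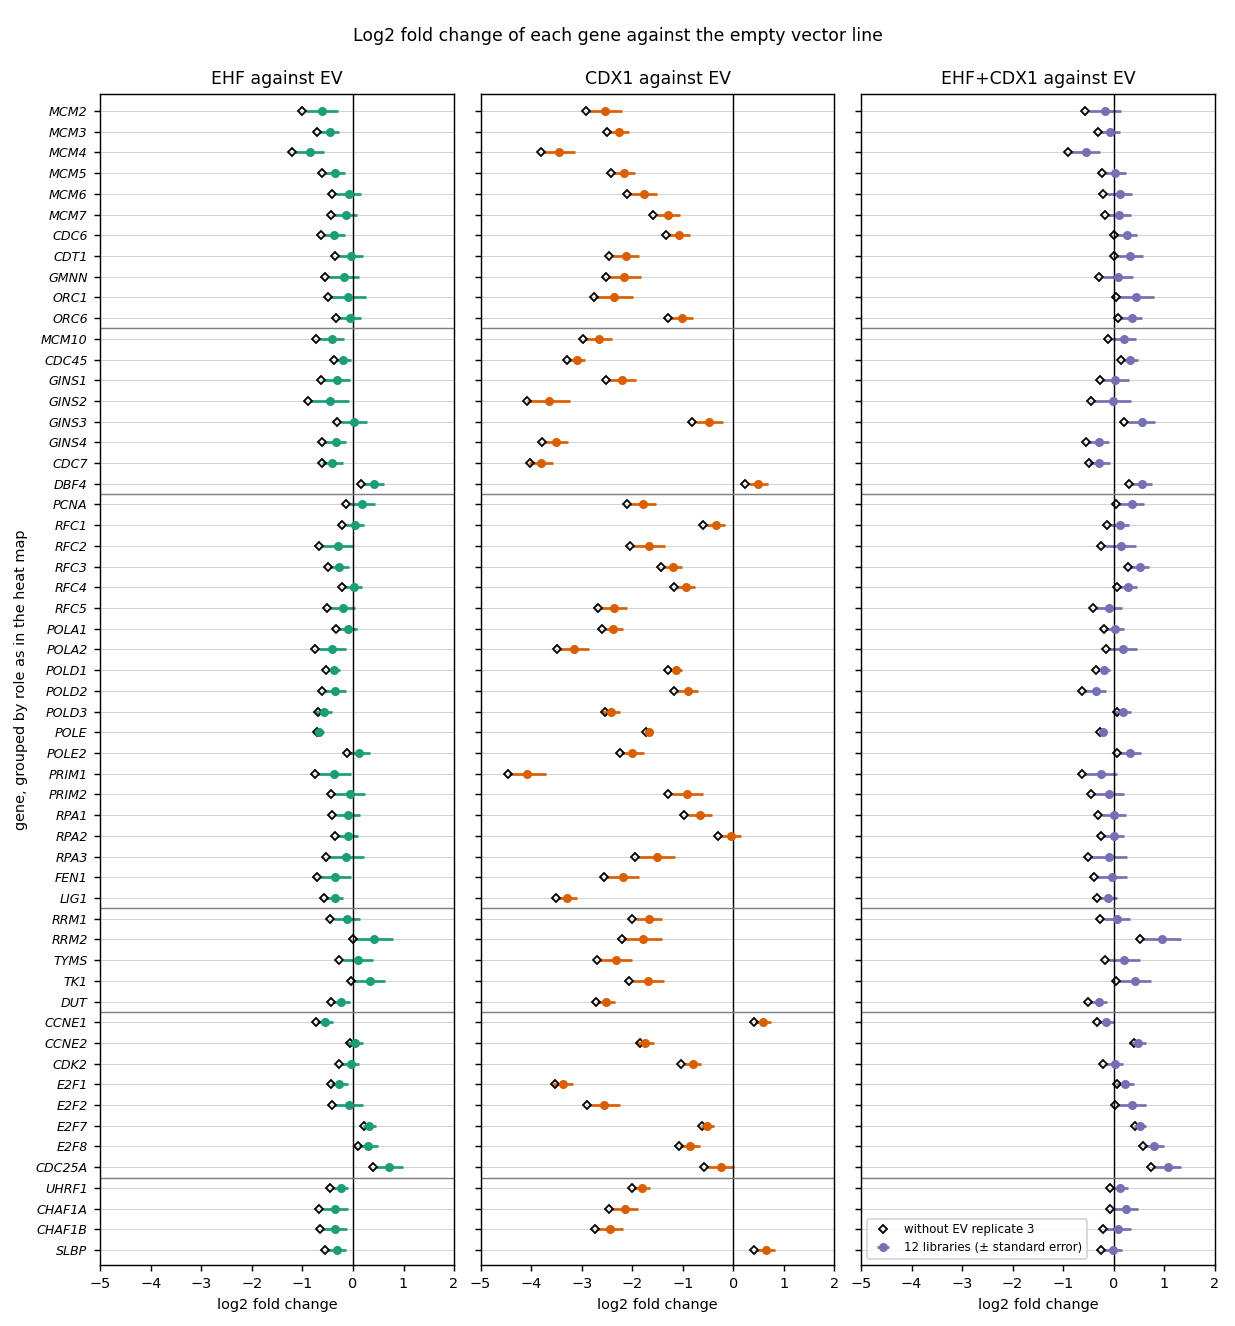
Log2 fold change of each of the 56 genes in EHF, CDX1 and EHF+CDX1 cells against EV cells, with the standard error of the fit to 12 libraries (filled) and the value without EV replicate 3 (diamonds). In the CDX1 panel most genes lie left of -1 either way, while in the EHF and EHF+CDX1 panels the diamonds are shifted left of the filled points, from a median of -0.20 to -0.47 and of 0.12 to -0.20.

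Levels of different genes can be compared only per exon length, for which the deposited log2 RPKM values were used. MCM7 was the highest of the MCM2 to MCM7 genes in every line, at a mean of 6.83 in EV and 5.28 in CDX1 cells, and the lowest was MCM6 in EV, EHF and EHF+CDX1 cells but MCM4, at 2.93, in CDX1 cells. The range over these 6 genes was 1.84 in EV, 1.71 in EHF, 2.35 in CDX1 and 1.85 in EHF+CDX1 cells on the log2 RPKM scale. Within GINS, GINS2 was the highest in EV, EHF and EHF+CDX1 cells, while in CDX1 cells GINS3 (2.73) was the highest and GINS4 (0.04) the lowest. Within polymerase alpha and primase, PRIM1 was the highest in the other 3 lines and PRIM2, at 2.34, in CDX1 cells. Over all 56 genes, TK1 and MCM7 were the 2 highest in EV, EHF and EHF+CDX1 cells, whereas SLBP (6.06) and POLD2 (5.57) were the highest and CDC7 (-0.69) the lowest in CDX1 cells.

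**Figure D4:**
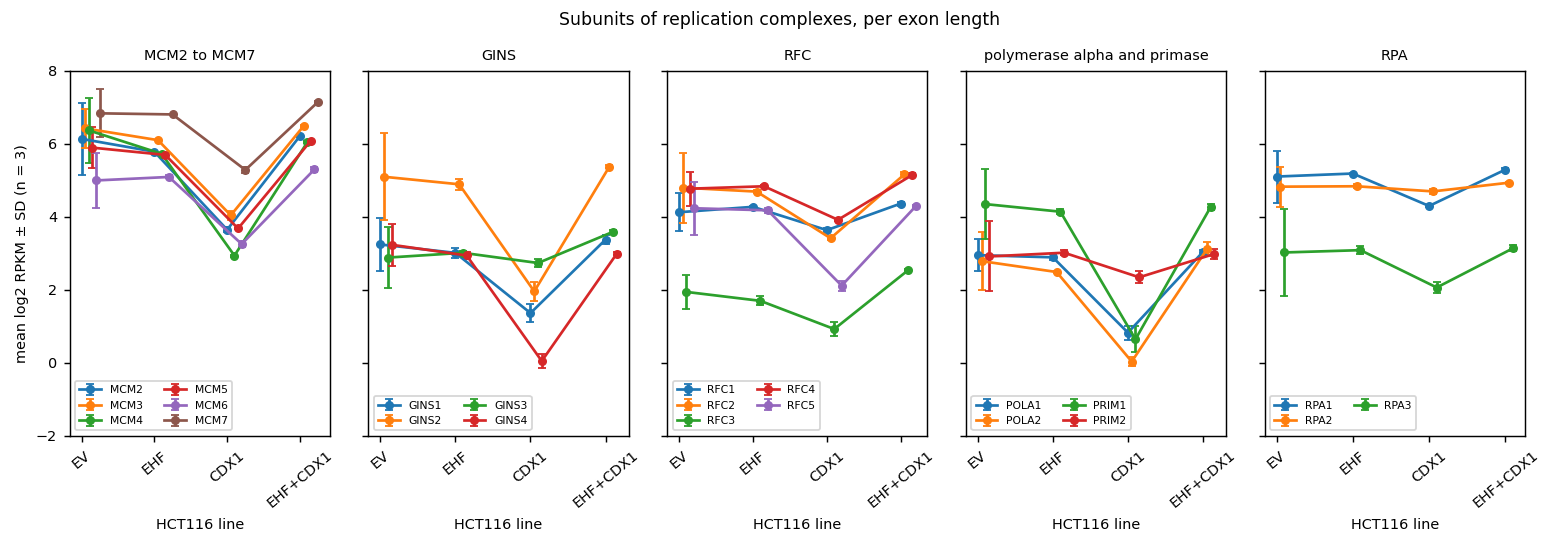
Mean log2 RPKM with SD (n = 3) of the subunits of 5 replication complexes in the 4 lines, so that levels can be read between genes. Lines cross between EHF and CDX1 cells and again between CDX1 and EHF+CDX1 cells, as for GINS2 and GINS3 and for PRIM1 and PRIM2.

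In EHF+CDX1 cells, which carry the same CDX1 retrovirus and more CDX1 RNA, the genes were not at the level of CDX1 cells. Against 1.5-fold, 47 of the 56 genes were higher in EHF+CDX1 than in CDX1 cells and 0 were lower, where 22.3% of all genes tested were higher and 18.7% lower, and at an unadjusted p of 0.05 and in DESeq2 and limma voom 0 were lower as well. Against no change, 52 were higher (34.9% of all genes) and 2, CCNE1 (-0.74 ± 0.15, adjusted p = 0.0011) and SLBP (-0.66 ± 0.18, adjusted p = 0.0067), were lower (32.3% of all genes). The median log2 fold change was 2.17, against 0.04 over all genes. The 3 highest values were PRIM1 (3.83 ± 0.37), GINS2 (3.63 ± 0.43) and E2F1 (3.59 ± 0.20). The 2 genes that passed neither test were DBF4 (0.07 ± 0.19) and RPA2 (0.05 ± 0.20). Dropping EV replicate 3, which enters this comparison only through the estimate of spread, gave 50 higher and 1 lower, CCNE1, against 1.5-fold (25.8% and 22.3% of all genes), and 52 higher and 2 lower against no change (41.6% and 39.6%). Under scaling by library totals the median of all genes in this comparison was 0.39.

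The interaction compared the difference between EHF+CDX1 and CDX1 cells with that between EHF and EV cells. It was positive against 1.5-fold for 43 of the 56 genes and negative for 0, where 20.2% of all genes tested were positive and 18% negative, and the median was 2.20 against 0.05 over all genes. Against no change 48 were positive (30.2% of all genes) and 0 negative (28.3%), and 0 were negative at an unadjusted p of 0.05 or against 1.5-fold in DESeq2 and limma voom. The highest values were 4.19 ± 0.48 for PRIM1, 4.10 ± 0.56 for GINS2 and 3.94 ± 0.31 for CDC7. The lowest were those of DBF4 and SLBP, both at -0.35, and of CCNE1 at -0.19, which passed neither test. Without EV replicate 3 it was positive for 51 genes against 1.5-fold (23.3% of all genes) and for 53 against no change (36%). The interaction and the single comparisons share libraries and are not independent of each other.

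Between EHF+CDX1 and EV cells, 0 of the 56 genes passed the 1.5-fold test in either direction, where 7.3% of all genes were higher and 3.13% lower, and 2 were higher and 0 lower at an unadjusted p of 0.05. DESeq2 and limma voom also called 0. Against no change, 6 genes were higher (16.9% of all genes) and 0 lower (16.7%), and 4 of the 6 were G1-S regulators. These were CDC25A (1.07 ± 0.27, adjusted p = 0.0089), E2F8 (0.80 ± 0.20, adjusted p = 0.0081), E2F7 (0.52 ± 0.12, adjusted p = 0.0075) and CCNE2 (0.48 ± 0.17, adjusted p = 0.047), with DBF4 (0.56 ± 0.19) and RFC3 (0.52 ± 0.18) as the others. All 3 EHF+CDX1 libraries were above all 3 EV libraries for each of these 6 genes, and also for RRM2, GINS3, CDC45 and POLD3. The share of all genes with that pattern was not counted. The lowest values were those of MCM4 (-0.55 ± 0.29), POLD2 (-0.35 ± 0.21) and GINS4 (-0.29 ± 0.21), which did not pass. RRM2 had the second highest log2 fold change, 0.95 ± 0.38, and did not pass (adjusted p = 0.072) with EV replicate 3, while without it the value was 0.53 and passed against no change (adjusted p = 7.2e-05).

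This comparison turned on EV replicate 3. Without it, 28 genes were lower (26.9% of all genes) and 8 higher (28.1%) against no change, the median was -0.20, and MCM4 was the 1 gene called lower against 1.5-fold (-0.91; 4.28% of all genes). CDC25A, E2F7, E2F8, CCNE2, DBF4 and RFC3 stayed higher against no change without it, at 0.74, 0.41, 0.58, 0.40, 0.30 and 0.29. Against EV replicates 1 and 2, all 3 EHF+CDX1 libraries were lower for 35 of the 56 genes, against 35.3% of all genes tested.

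EHF cells gave 0 calls against EV cells in the 1.5-fold test in either direction, where 5.68% of all genes were higher and 2.65% lower. There were also 0 at an unadjusted p of 0.05 and in DESeq2 and limma voom. Against no change, 5 were lower (15.1% of all genes) and 0 higher (14.9%), namely MCM4 (-0.86 ± 0.29), POLE (-0.66 ± 0.08), POLD3 (-0.58 ± 0.17), CCNE1 (-0.55 ± 0.15) and POLD1 (-0.38 ± 0.12), with adjusted p between 0.00012 and 0.042. MCM2 (-0.62 ± 0.32) was the third lowest value, and the highest were CDC25A (0.72 ± 0.26), RRM2 (0.42 ± 0.37) and DBF4 (0.41 ± 0.19), none of which passed. The median was -0.20. Without EV replicate 3 the median was -0.47, and 47 genes were lower (26.3% of all genes) and 1, CDC25A (0.39), was higher (26.4%) against no change. In that fit 5 genes, MCM2, MCM4 (-1.21), GINS2 (-0.88), FEN1 and POLE (both -0.72), were lower (3.46% of all genes) and 0 higher (9.51%) against 1.5-fold. All 3 EHF libraries were below EV replicates 1 and 2 for 48 of the 56 genes, and 37% of all genes showed that pattern. The exceptions were DBF4, POLE2, RRM2, TK1, CCNE2, E2F7, E2F8 and CDC25A.

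EHF+CDX1 cells against EHF cells does not rest on the EV libraries except for the shared estimate of spread. The median log2 fold change was 0.31 (0.00 over all genes), and 53 of the 56 values were positive. Against 1.5-fold 0 genes passed in either direction (2.49% of all genes higher, 0.189% lower), with 0 at an unadjusted p of 0.05 and 0 in DESeq2 and limma voom. Against no change 3 were higher (5.65% of all genes) and 0 lower (4.13%). RFC3, the clamp loader subunit whose promoter is shown above, was at 26.1, 30.4 and 29.7 CPM in EHF and 50.8, 47.9 and 50 CPM in EHF+CDX1 libraries, against 40.2, 40.9 and 23.1 CPM in EV and 17.1, 15.2 and 13.1 CPM in CDX1 libraries. All 4 lines were apart for this gene but for EV replicate 3, which lay below the EHF libraries, and the log2 fold change of EHF+CDX1 over EHF cells was 0.78 ± 0.19 (adjusted p = 0.019). POLD3, described above, was at 0.76 ± 0.17 (adjusted p = 0.014) and POLE at 0.45 ± 0.08 (adjusted p = 0.0052). CDC6 was at 0.63 ± 0.21 and did not pass, and the 3 values under 0 were those of DUT (-0.06), PRIM2 (-0.03) and POLD2 (-0.01). With EV replicate 3 left out, which narrowed the estimate of spread, 38 genes were higher against no change (18.1% of all genes), 0 were higher against 1.5-fold (3.34%) and the median was again 0.31. All 3 EHF+CDX1 libraries were above all 3 EHF libraries for 46 of the 56 genes, against 27.4% of all genes tested.

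EV replicate 3 held these genes at a median of 0.473 of the mean of EV replicates 1 and 2, from 0.245 for RRM2 to 0.896 for POLE, while the median over all tested genes was 1.05. By role, the median ratio was 0.324 for nucleotide supply, 0.413 for licensing and helicase, 0.469 for origin firing, 0.497 for chromatin and histone mRNA and 0.625 for G1-S regulators, with clamp, loader and polymerases between the last pair. For 42 of the 56 genes this library lay between the CDX1 libraries and the 8 others, a pattern of 6.71% of all genes. Across the 56 genes, which are not independent, the log2 ratio of EV replicate 3 over the other EV libraries and that of CDX1 over EHF cells had a Pearson correlation of 0.26 and a Spearman correlation of 0.24, and the points share the TMM scale. For 24 mitosis genes the median log2 difference from EV replicates 1 and 2 was -1.69 in EV replicate 3 and -1.32 to -1.05 in the CDX1 libraries, whereas for the 56 genes it was -1.08 and -2.24 to -2.13.

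The wider set of cell cycle genes was divided into 4 lists written from general knowledge. In CDX1 against EV cells, 23.3% of all genes tested were lower and 21.3% higher against 1.5-fold. Of 28 other licensing and fork genes, 15 were lower and 1 higher in CDX1 than in EV cells against 1.5-fold, with a median of -0.88. PCLAF, which binds PCNA, was at 2.5, 1.82 and 2.65 CPM in CDX1 and 35.7, 34.8 and 8.42 CPM in EV libraries (-3.49 ± 0.44), and the fork protein gene CLSPN changed by -3.01. The 1 higher gene was DONSON (1.01 ± 0.10), which takes part in assembling the helicase. Of 24 S phase chromatin and nucleotide genes, 17 were lower and 0 higher against 1.5-fold, with a median of -1.49. At an adjusted p against no change 1 was higher (33.8% of all genes). Of 24 mitosis genes, 10 were lower and 1, ANLN (1.71 ± 0.29), was higher, with a median of -0.81. Without EV replicate 3 there were 19 lower (24.8% of all genes).

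Of the 28 cyclin, CDK, RB, E2F and inhibitor genes, 8 were higher and 7 lower in CDX1 than in EV cells against 1.5-fold, shares near the 21.3% and 23.3% of all genes, and the median was 0.40. Among the CDK inhibitors CDKN1A, which encodes p21, was at 150, 154 and 227 CPM in EV, 494, 508 and 491 CPM in EHF, 594, 611 and 644 CPM in CDX1 and 331, 333 and 365 CPM in EHF+CDX1 libraries. Its log2 fold change was 1.80 ± 0.14 in CDX1 and 0.95 ± 0.14 in EHF+CDX1 against EV cells. CDKN2B was at 47.1, 48.5 and 41.8 CPM in CDX1 libraries and at 5.99 to 15.5 CPM in all others, and rose by 2.67 ± 0.13. CDKN1B, CDKN2C and CDKN2D rose by 1.09, 2.10 and 1.15. The lower genes included SKP2 (-2.67), which targets p27 for degradation, the RB family genes RBL1 (-2.44) and RBL2 (-2.07), and TFDP1 (-1.08), the E2F partner. CDK6 was at 3.9 to 4.45 CPM in EV libraries and at 87.6 to 141 CPM in all libraries of the other 3 lines. In EHF+CDX1 against CDX1 cells, 22.3% of all genes tested were higher and 18.7% lower against 1.5-fold. Of the other lists, 16 of the 28 licensing and fork genes, 18 of the 24 S phase chromatin and nucleotide genes and 12 of the 24 mitosis genes were higher. The cyclin and inhibitor genes were closer to the shares of all genes, with 9 of 28 higher and 6 lower. CDKN2B (-2.38 ± 0.13) and CDKN1B (-0.94 ± 0.12) were among the lower ones.

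Across the 12 libraries the 56 genes were compared with their own mean profile, the mean of their standardized log2 CPM. The Pearson correlation was 0.997 for MCM7 and 0.996 for MCM6 and RRM1, and it was 0.41 for RPA2, 0.11 for DBF4, -0.49 for SLBP and -0.56 for CCNE1. Of the tested genes outside the list, KIF18B, LMNB1, TRIP13, MCM8 and CHEK1 had the profiles most like the mean, with correlations of 0.994 to 0.996. The points share lines and scaling and these values are descriptions. The spread between libraries of a line was small outside EV cells. The median coefficient of variation over the 56 genes was 37.3% in EV, 3.86% in EHF, 9.41% in CDX1 and 3.32% in EHF+CDX1 cells.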

How the data were processed

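RNA-seq of polyA RNA from 4 HCT116 lines, 3 libraries each, was analysed. The authors mapped reads with Subread to GRCh38/hg38, used those with a single best location and assigned them to RefSeq exons by featureCounts (both version 2.0.0 in the submitters' processing notes), and deposited raw counts per gene, without normalization. They also deposited log2 RPKM values, made by the authors with limma voom, quantile normalization and exon lengths. The strand setting is not given in the sources used here, and 15 of the 56 genes overlap another counted gene, among them PCNA, TYMS, MCM7, CCNE2 and RPA3, so their counts are uncertain to that extent.

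Counts were fitted with edgeR 4.0.16 in R 4.3.3. A gene was tested if 3 or more libraries had 0.5 CPM or above, which left 15853. TMM factors were applied, and all 12 libraries entered 1 quasi-likelihood model in which the line was the group. Calls came from glmTreat with a threshold of 1.5-fold and required a Benjamini-Hochberg adjusted p under 0.05 over the genes tested. For single genes the F test against no change gave the log2 fold change and its adjusted p, with the SE taken as the absolute log2 fold change over the root of F. For 3 libraries against 3 an exact permutation test cannot go below 0.1 and was not used. Levels are TMM-normalized CPM. Total counts of 13523007 to 74186741 set the precision, and 3 counts corresponded to 0.0375 to 0.207 CPM.

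The members, roles, other lists and motifs were chosen with earlier results of these data known. Genes always described were the helicase, clamp, polymerase, nucleotide and E2F genes, with the 3 highest and 3 lowest of each comparison, and per-library values were given for 12. The subunit pairs whose ratios are given, the genes named from the other cell cycle lists, and DBF4, CCNE1 and SLBP for values by library were picked after their values were seen. Promoters came from RefSeq on GRCh38.p14. The scripts were tested on simulated data. Alternatives were limma 3.58.1 voom, DESeq2 1.42.0, RLE factors, library totals, other filters, the log2 RPKM values, thinned counts, a replicate block and each library left out.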

Additional observations from a re-analysis of the deposited data

Results flagged for a closer look

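The difference between the lines with and without EHF was not the same with CDX1 as without it. By the test of the interaction, 43 of the 56 genes differed by more than 1.5-fold, all of them in the positive direction, where 20.2% of all genes were positive and 18% negative, with the largest log2 values at 4.19 for PRIM1, 4.10 for GINS2 and 3.94 for CDC7. In each of these 3 genes the EHF libraries lay below EV replicates 1 and 2 but above EV replicate 3, and the EHF+CDX1 libraries lay above all CDX1 libraries. With EV replicate 3 in the fit, none of the 3 genes was called in EHF against EV cells. The EHF+CDX1 line came from clones selected after a further transfection of CDX1 cells, and held 10.3-fold more CDX1 RNA than CDX1 cells. The EHF level of the lines without added EHF also differed, with a mean of 299 CPM in EV and 12.3 CPM in CDX1 cells. The added EHF, its different starting level, that selection and the higher CDX1 level cannot be told apart.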

How the results depend on the processing

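The lower calls in CDX1 against EV cells ranged from 37 to 49 over all alternatives, the higher calls in EHF+CDX1 against CDX1 cells from 44 to 52 and the positive interactions from 38 to 51. With each library left out in turn, these ran from 40 to 49, from 45 to 50 and from 43 to 51. The counts over all genes moved with the setting as well. Lower calls in CDX1 against EV cells were 2770 of 15853 genes by limma on the log2 RPKM values. Under library totals they were 5115 of 15853. Tested against no change, 5 of the 56 genes were lower in EHF and 3 higher in CDX1 against EV cells, and 6 were higher in EHF+CDX1 against EV cells. In EHF+CDX1 cells 3 were higher against EHF cells and 2 were lower against CDX1 cells. With only the groups compared and against 1.5-fold, 2 were higher in EHF+CDX1 against EHF cells, where 578 of 15256 genes tested were higher. Against CDX1 cells 1 was lower, where 3336 of 15271 genes were lower. No such fit was made for the interaction. With a library left out, the lower calls ran from 0 to 5 in EHF against EV cells and from 0 to 1 in EHF+CDX1 against EV and against CDX1 cells, the upper values coming without EV replicate 3, and the higher calls in EHF+CDX1 against EV cells ran from 0 to 1, the 1 without EV replicate 2.

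Leaving out EV replicate 3 turned signs. Positive values went from 13 to 4 of the 56 genes in EHF against EV cells. In EHF+CDX1 against EV cells the positive values went from 38 to 20. Ranges over the libraries left out follow for genes whose sign turned and that passed against no change with or without it. The lower ends are the values without EV replicate 3. In EHF against EV cells they were GINS3 (-0.31 to 0.25), RFC1 (-0.21 to 0.20), RFC4 (-0.22 to 0.15), TYMS (-0.27 to 0.34). In EHF+CDX1 against EV cells they were MCM5 (-0.23 to 0.20), MCM6 (-0.21 to 0.32), MCM7 (-0.18 to 0.31), GMNN (-0.29 to 0.35), GINS1 (-0.28 to 0.22), RFC2 (-0.24 to 0.39), RPA1 (-0.30 to 0.22), RPA2 (-0.26 to 0.17), RRM1 (-0.27 to 0.31), CDK2 (-0.22 to 0.17). Scaling by library totals moved the share of higher calls among all calls in CDX1 against EV cells from 47.8% to 30.8%, in EHF+CDX1 against CDX1 cells from 54.3% to 74.2% and in the interaction from 52.9% to 69.2%, and limma on the log2 RPKM values moved it in EHF+CDX1 against EHF cells from 92.9% to 82.0%. That last share was 73.6% with only the groups compared and 79.9% without EV replicate 3. The replicate numbers did not pair the samples, since deviations of same-numbered libraries correlated at -0.07 to 0.08, and with a replicate block 43 genes were lower in CDX1 against EV cells, as without it. The cause of the difference of EV replicate 3 was not tested.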
